A study of Homo sapiens with 36 samples.

Results

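The 36 genes described here encode enzymes of glycolysis, carriers of glucose and lactate, proteins that lead pyruvate into mitochondria, and HIF1A with genes linked to the hypoxia-inducible factors (HIF). They were listed by name, by a rule that uses no measured value but was drawn up with earlier results of these data known, and are 36 of the 35490 genes to which the deposited transcript values could be summed. RNA was measured by bulk sequencing in the acute myeloid leukaemia (AML) lines MOLM-13 and MONO-MAC-6, both human and labelled WT, after 72 h with the solvent DMSO or with A9. A9 is a PROTAC, a compound that leads its target proteins to degradation. The title of the series names IKK1 and NR4A1 as the targets and its design text IKK2 and NR4A1, and a loss of these proteins cannot be read from RNA. MOLM-13 received 0.125 µM A9 and MONO-MAC-6 received 0.25 µM, so line and dose changed together. Each of the 4 groups (MOLM-13 DMSO, MOLM-13 A9, MONO-MAC-6 DMSO and MONO-MAC-6 A9) held 3 samples. DMSO was the only control, all cells grew in RPMI medium with serum, and the labels name no low-oxygen group.

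Glycolysis splits glucose to pyruvate in the cytosol. Lactate dehydrogenase then turns pyruvate into lactate, which leaves the cell through monocarboxylate carriers, or the mitochondrial pyruvate carrier brings it to the pyruvate dehydrogenase complex. When oxygen is low, prolyl hydroxylases such as EGLN1 no longer mark HIF1A protein for destruction, and HIF raises many genes of glycolysis along with VEGFA, BNIP3 and EGLN1 itself. HIF1A is regulated mostly as a protein, so its RNA level is not a readout of its activity. Many leukaemia cells make lactate even where oxygen is at hand.

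Values are TPM, transcript abundances corrected for transcript length and scaled to a fixed total in each library, so levels may be set side by side between genes. Differences and their tests are on the log2(TPM + 1) scale, which understates the change of genes at low levels, whereas a fold is the ratio of mean TPM. A gene was called when its limma p-value, adjusted over all genes tested, was under 0.05. The 36 genes together held 1.09% ± 0.015 of all TPM (SD, n = 3) in MOLM-13 with DMSO and 1.02% ± 0.053 with A9. They held 1.04% ± 0.054 in MONO-MAC-6 with DMSO and 1.04% ± 0.011 with A9. GAPDH had the highest mean of the 36 in MOLM-13 in either treatment and in MONO-MAC-6 with DMSO, and ENO1 had the highest in MONO-MAC-6 with A9. With DMSO, 13 of the 36 reached a mean of 100 TPM in MOLM-13 and 12 for MONO-MAC-6, while 10 and 7 stayed under 10 TPM.

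Each sample is the mean of 3 deposited libraries that share the first of the 2 numbers in their names. Libraries sharing the first number were much closer to each other than those sharing the second, and what either number marks is not stated, so the p-values may measure only technical spread. Had the libraries been averaged by the second number, 20 of 34 genes of the set would have been called after A9 in MOLM-13 (5439 of 11602 genes in all) and 24 of 35 in MONO-MAC-6 (8705 of 12876). Some samples stood apart, and this touches the results below. In MONO-MAC-6, DMSO sample 1 was the lowest of the 6 samples for 24 of the 35 genes of the set that were tested, and the same was true of 64.2% of all genes tested in that line. Its shortfall against DMSO samples 2 and 3 went with transcript length. The 20 genes of the set with a mean transcript length of 2000 bases or more had a median difference of -0.67 (log2 scale), and the 15 shorter ones had -0.095. In MOLM-13, A9 sample 3 was the lowest of 6 for 21 of 34 genes of the set and DMSO sample 1 the highest for 19 of 34. The share of all genes for which this was so was not counted in MOLM-13, so these counts cannot be read as particular to the set. TPM keep no counts, so the depth of each sample is unknown and no counting error can be given.

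**Figure D1:**
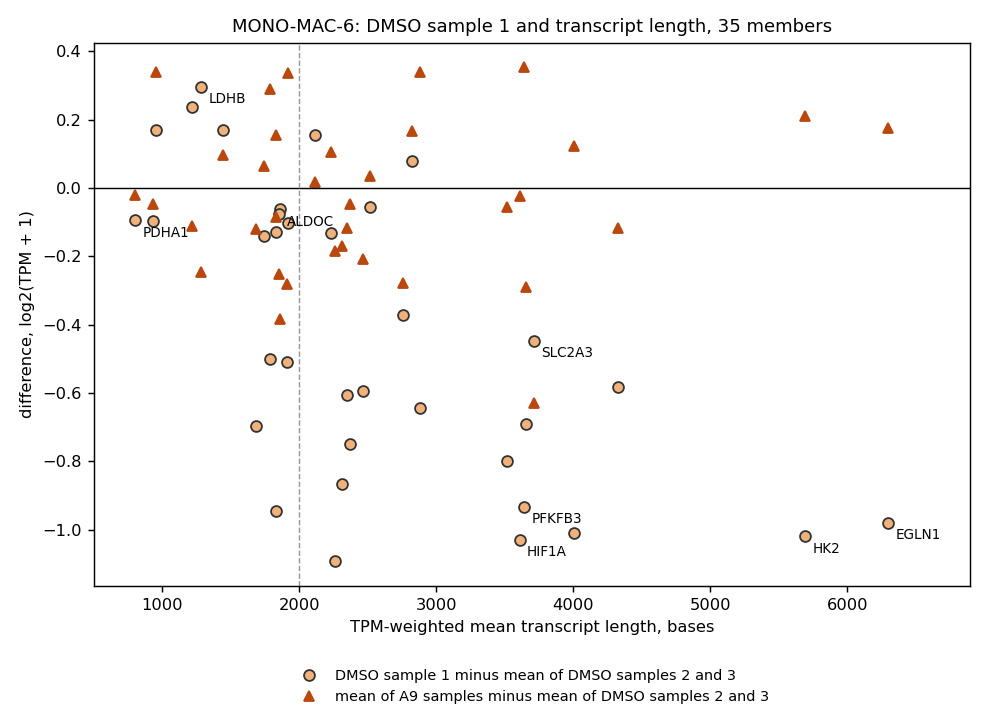
MONO-MAC-6 samples and transcript length. Each circle is 1 of 35 genes and shows DMSO sample 1 minus the mean of DMSO samples 2 and 3 (log2(TPM + 1)) against the TPM-weighted mean transcript length in bases, and each triangle shows the mean of the 3 A9 samples minus the same mean. Most circles right of the dashed line at 2000 bases lie well below 0, and the triangles lie around 0 at all lengths.

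The lines carried most of 14 markers of myeloid cells. In MOLM-13 with A9, 13 of them reached 1 TPM in a sample, and in each other group 12 did. The 14 myeloid markers summed to between 1867 and 2098 TPM in MOLM-13 with DMSO and to between 2873 and 2908 with A9. In MONO-MAC-6 the sums were 7376 to 7587 with DMSO and 12168 to 12334 with A9. LYZ, the gene of lysozyme, a monocyte and granulocyte product, rose with A9 in both lines, by 1.29 in MOLM-13 (adjusted p = 0.00517), where it was the only one of 13 tested markers called. In MONO-MAC-6 it rose by 1.17 (adjusted p = 0.00274), and CD14 (1.77) and SPI1 (0.38) rose as well, 3 of 12 tested. The sum of 16 markers of other cell types was 18.3 to 31.7 TPM in MOLM-13 with DMSO and 17.0 to 34.4 with A9. It was 69.6 to 151 TPM in MONO-MAC-6 with DMSO and 212 to 235 with A9, most of it from PECAM1, which myeloid cells also make. KRT18 was the 1 of 5 tested that was called there, lower with A9 (-0.78), and 0 of 3 tested were called in MOLM-13. CD3E, MS4A1, HBB, PPBP and PF4 were listed at 0 in all groups. The part of these marker levels in the results below was not tested.

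Between the lines with DMSO, most of the 36 genes differed, in both directions. Of the 35 tested, 25 were called, 14 higher and 11 lower in MONO-MAC-6, against 48.8% of all genes tested (30.4% higher and 18.4% lower). The samples of the lines did not overlap for 26 of the 35 (14 higher and 12 lower), against 59.0% of all genes (34.9% higher and 24.1% lower). The median difference over the 35 was 0.031, beside 0.12 over all genes. The line and the deposited table cannot be told apart here, since each line has its own table, and in bulk RNA fewer cells of a kind and less RNA per cell cannot be told apart either. The genes that were higher in MONO-MAC-6 were HK1, GPI, PFKL, PFKM, PFKFB4, ALDOC, ENO1, ENO2, PKM, SLC16A1, SLC16A3, MPC2, BNIP3 and P4HA1. The genes that were lower were PFKP, TPI1, GAPDH, PGK1, PGAM1, SLC2A3, PDK1, PDHA1, MPC1, VEGFA and ANKRD37. With the samples scaled by median ratios, 26 were called, 11 higher and 15 lower, against 55.4% of all genes (26.1% higher and 29.2% lower), and the median over all genes moved from 0.12 to -0.078. ENO1, SLC16A1 and MPC2 were not called under that scaling. For 6 called genes the adjusted p passed 0.05 when a sample was left out. ENO1 (up to 0.091), SLC16A1 (0.132) and MPC2 (0.139) were called only in the fit without MONO-MAC-6 sample 1. P4HA1 (up to 0.073) was lost without sample 2 or 3 of either line, PDK1 (0.104) without MOLM-13 sample 1 or 2 or MONO-MAC-6 sample 2, and ANKRD37 (0.101) without MOLM-13 sample 2 or 3 or MONO-MAC-6 sample 2. Without MONO-MAC-6 sample 1, 29 of 35 were called, 17 higher and 12 lower, against 61.8% of all genes (41.6% higher and 20.2% lower), and HK2, ALDOA, SLC2A1 and HIF1A were the 4 added.

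**Figure D2:**
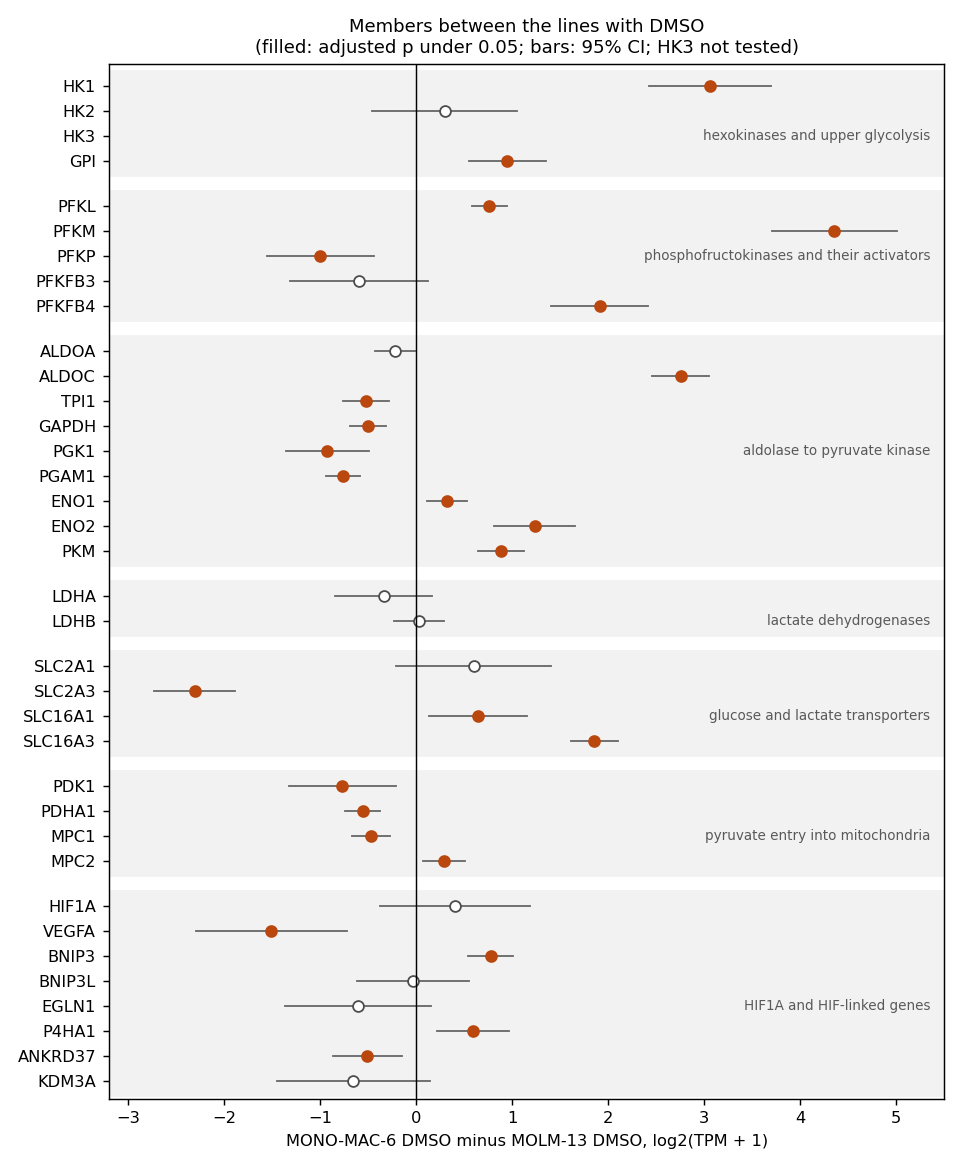
The 36 genes between the lines with DMSO. The x axis is the mean of MONO-MAC-6 minus the mean of MOLM-13 on the log2(TPM + 1) scale, bars are 95% confidence intervals from limma, filled points were called, and shaded blocks are the roles. PFKM lies farthest to the right at 4.35 and SLC2A3 farthest to the left at -2.31, and HK3 was not tested.

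After A9, 0 of the 36 genes were called in either line. In MOLM-13, 34 were tested and 0.121% of all genes were called. An unadjusted p under 0.05 was found for 3 of the 34 (HK3, GAPDH and SLC2A3), against 7.89% of all genes. The A9 and DMSO samples did not overlap for 6 of the 34, against 15.0% of all genes. HK3 and BNIP3 were the 2 that were higher (8.58% of all genes), and SLC2A3, SLC16A1, GAPDH and PFKL the 4 that were lower (6.42%). In MONO-MAC-6, 35 were tested and 3.36% of all genes were called. There the unadjusted p was under 0.05 for 9 of the 35 (GPI, PFKFB3, ALDOC, GAPDH, LDHB, SLC2A3, SLC16A3, MPC1 and BNIP3L), against 20.4% of all genes. The samples did not overlap for 14 of the 35, 9 higher (27.2% of all genes) and 5 lower (10.7%), 37.9% in all. The 9 were HK2, GPI, PFKL, PFKFB3, SLC16A3, MPC1, BNIP3L, EGLN1 and KDM3A, and the 5 were ALDOC, TPI1, GAPDH, LDHB and SLC2A3. The comparisons between lines, with A9 and between the A9 effects share samples. With A9, the shares of the set that did not overlap lay near those of all genes over both directions.

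The median difference with A9 over the set also lay near that of all genes. It was -0.054 in MOLM-13, beside -0.046 for all genes, and 0.11 in MONO-MAC-6, beside 0.16. In MOLM-13 its sign turned when a sample that stood apart was left out. It was 0.0033 without A9 sample 3 (0.031 over all genes) and 0.0068 without DMSO sample 1 (0.010 over all genes). With median-ratio scaling the median over all genes in MONO-MAC-6 moved to -0.0092 and that of the set to -0.078, so the sign of small differences in that line turns with the scaling. Without DMSO sample 1 the picture in MONO-MAC-6 was another. Then 12 of the 35 were called, against 24.8% of all genes. MPC1, GPI, SLC16A3, PFKL, HK2 and PFKFB3 were the 6 that were higher (14.5% of all genes), and SLC2A3, ALDOC, GAPDH, LDHB, P4HA1 and SLC16A1 the 6 that were lower (10.3%). No other sample left out gave a call. With each sample's trend on transcript length removed, 4 were called, all lower with A9 (SLC2A3, ALDOC, P4HA1 and SLC16A1), against 9.28% of all genes (4.34% lower). All 4 also passed without DMSO sample 1, and SLC2A3 also with median-ratio scaling, for which no share of all genes called is given here.

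**Figure D3:**
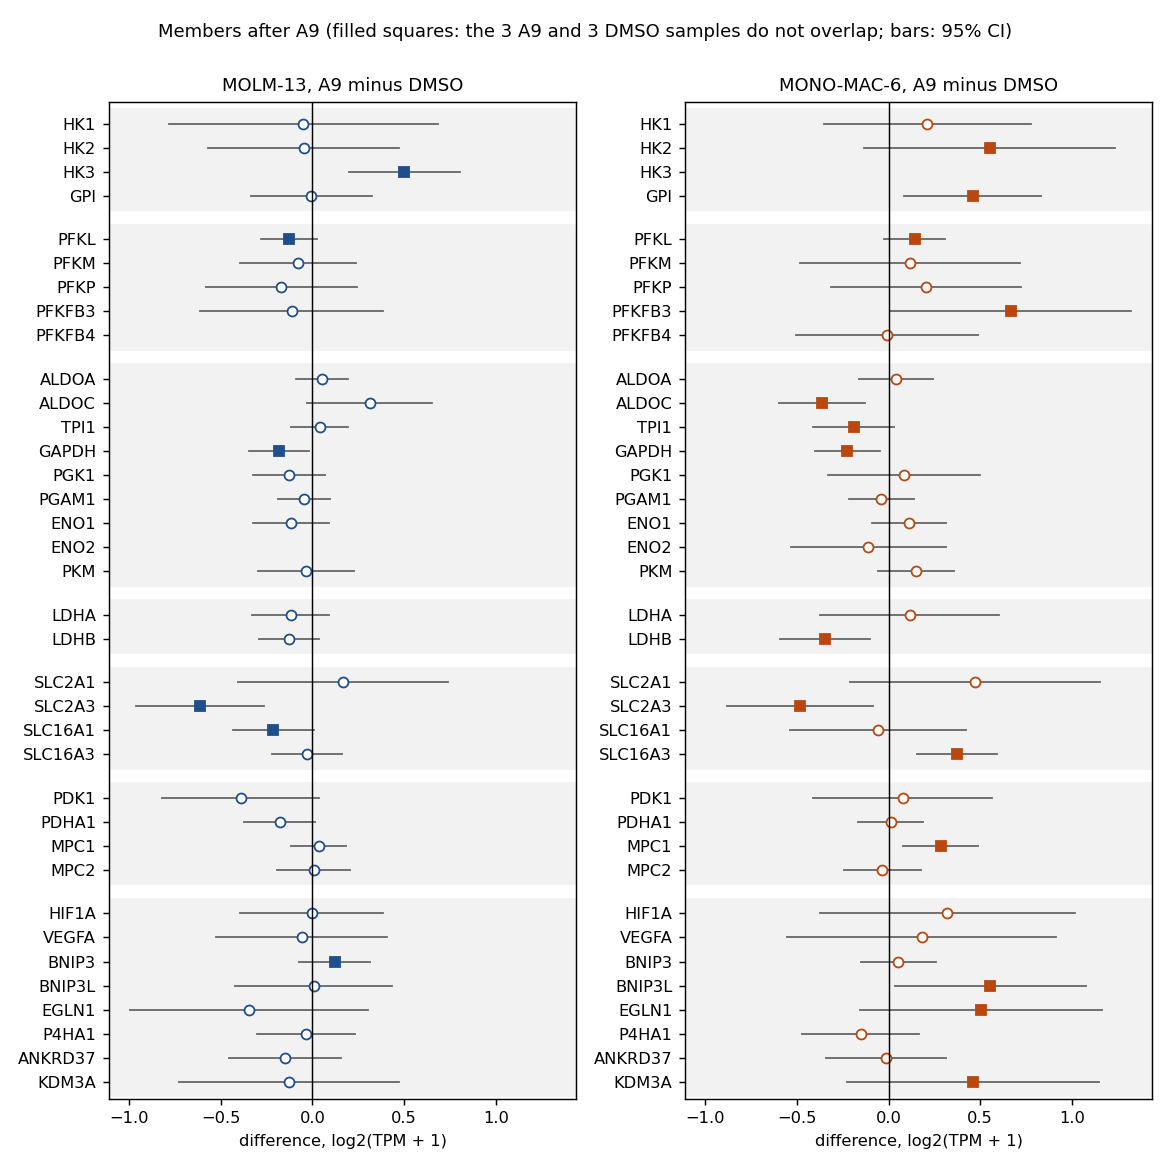
The 36 genes after A9, MOLM-13 on the left and MONO-MAC-6 on the right. The x axis is the mean of 3 A9 samples minus the mean of 3 DMSO samples on the log2(TPM + 1) scale, bars are 95% confidence intervals from limma, and filled squares mark genes whose A9 and DMSO samples do not overlap (6 in MOLM-13, 14 in MONO-MAC-6). SLC2A3 is the lowest in either panel, HK3 the highest in MOLM-13 and PFKFB3 the highest in MONO-MAC-6.

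The difference between the A9 effects of the lines (MONO-MAC-6 minus MOLM-13) was called for 0 of the 36, against 2.99% of all genes. The unadjusted p was under 0.05 for 4 of them (PFKL, ALDOC, SLC16A3 and MPC1), against 17.7% of all genes. The median over the 36 was 0.20, and that over all genes was 0.20. ALDOC came closest, at -0.68 ± 0.16 (SE) with an adjusted p of 0.0551. It passed with median-ratio scaling (0.00643) and with the length trend removed (0.00243). Of 12 fits that left out a sample it passed in 1, that without MOLM-13 A9 sample 3 (0.0221, and up to 0.145 in the others). SLC16A3 had a difference of 0.40 ± 0.11 (SE, adjusted p = 0.093). Of the 12 fits that left out a sample, it passed only in that without MONO-MAC-6 DMSO sample 3 (0.0321, and up to 0.238 in the others). Under the other alternatives the difference went as low as 0.16 and the adjusted p as high as 0.507.

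Hexokinases, which trap glucose in the cell as glucose 6-phosphate, changed their mix between the lines. HK1 (chromosome 10, 69269984 to 69401884 in GRCh38), the form found in most tissues, stood at 2.53, 1.97 and 1.73 TPM in MOLM-13 DMSO samples 1 to 3. In MONO-MAC-6 with DMSO it stood at 16.6, 27.2 and 32.4 TPM, 12.2-fold higher in the mean, and no sample of MONO-MAC-6 came near those of MOLM-13. The difference was 3.06 ± 0.26 (SE, adjusted p = 0.000196). With A9, HK1 was 2.44, 3.08 and 0.842 TPM in MOLM-13 and 29, 27.8 and 28.9 for MONO-MAC-6, and the groups overlapped with DMSO in both lines.

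HK2 (chromosome 2, 74833981 to 74893359), the form most often raised in tumours, stood at 17.6, 14.5 and 12.5 TPM in MOLM-13 with DMSO and at 11.0, 22.6 and 24.3 in MONO-MAC-6. These overlapped, and the difference between lines was 0.30 ± 0.31 (SE, adjusted p = 0.471). HK2 thus made up 84.7% ± 0.94 of the hexokinase TPM in MOLM-13 with DMSO (SD, n = 3) and HK1 11.8% ± 0.42. In MONO-MAC-6 HK1 held 57.3% ± 2.7 and HK2 42.7% ± 2.7. After A9, HK2 in MONO-MAC-6 was 27.9, 27.1 and 26.8 TPM, above all 3 DMSO samples, with a difference of 0.55 ± 0.28 (SE, adjusted p = 0.32). Without DMSO sample 1, the lowest of the 6, it was 0.21 (adjusted p = 0.0353). In MOLM-13 HK2 was 14.9, 18.1 and 10.5 TPM with A9, which overlapped with DMSO.

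HK3 (chromosome 5, 176880869 to 176899332), a hexokinase of mature myeloid cells, was scarce. It stood at 0.447, 0.590 and 0.700 TPM in MOLM-13 with DMSO and at 1.02, 1.33 and 1.35 with A9, so all A9 samples lay above all DMSO samples. The difference of 0.50 ± 0.13 (SE) was the highest of the set in that line, with an adjusted p of 0.274. In MONO-MAC-6 it was 0.0255, 0.0455 and 0.0215 TPM with DMSO and 0.199, 0.358 and 0.249 with A9, under the minimum for a test. Of its TPM in MOLM-13 with DMSO, the coding transcript held 39.6% ± 24 (SD, n = 3), and the retained-intron transcripts HK3-203 and HK3-206 held 27.7% ± 12 and 22.1% ± 27, so the makeup of this low level was uncertain. GPI, which turns glucose 6-phosphate to fructose 6-phosphate, was 1.96-fold higher in MONO-MAC-6 with DMSO, at 538 ± 112 TPM against 275 ± 21.2 (SD, n = 3; adjusted p = 0.00402). With A9 it was 729 ± 12.8 TPM in MONO-MAC-6, above all DMSO samples, and the difference of 0.46 had an adjusted p of 0.182.

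**Figure D4:**
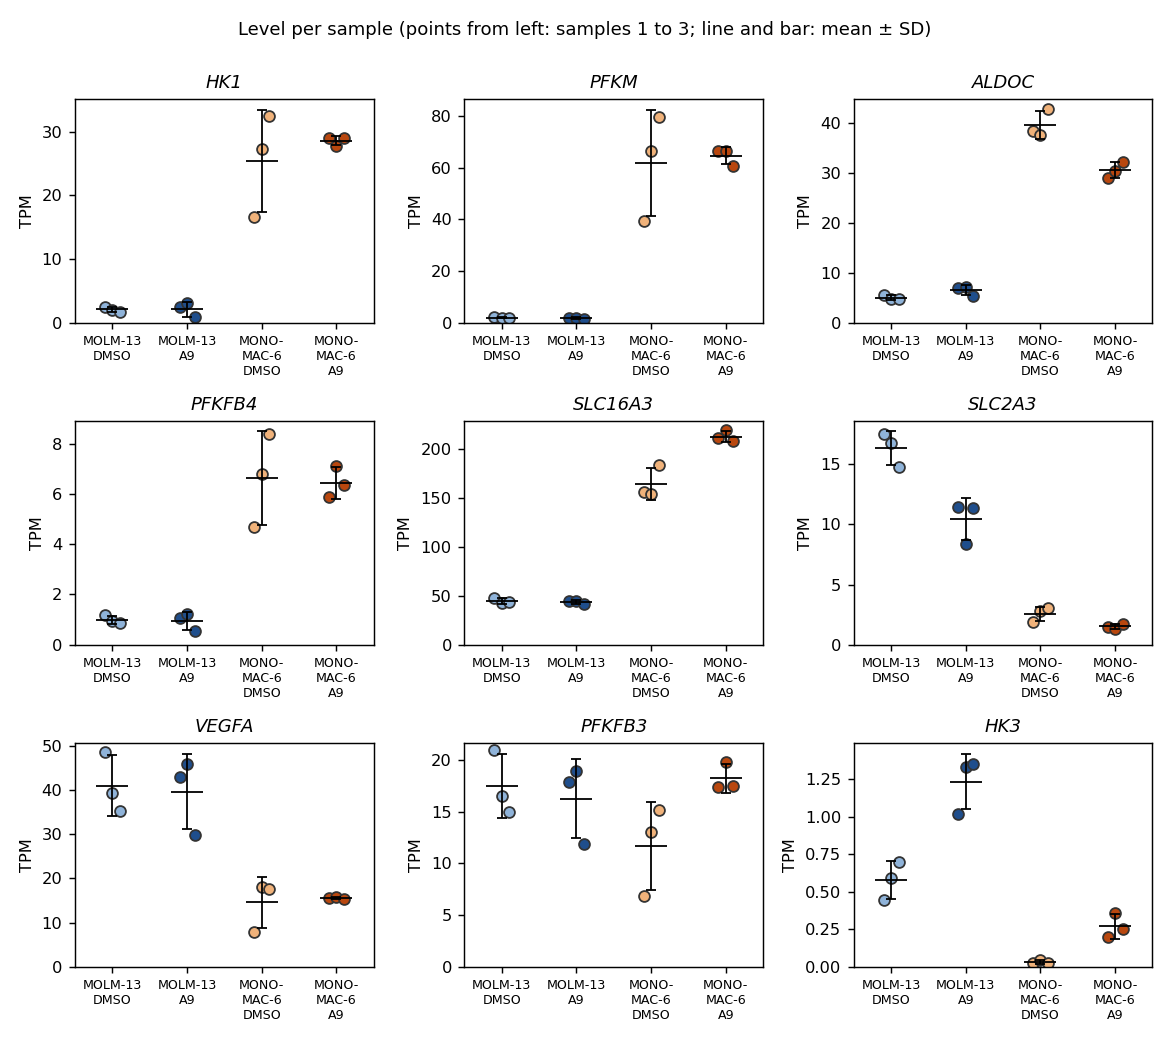
TPM of 9 genes in each of the 12 samples. Points within a group run from sample 1 to sample 3, and the line and bar are the mean ± SD of 3 samples, on linear axes from 0. HK1, PFKM, ALDOC, PFKFB4 and SLC16A3 are higher in all MONO-MAC-6 samples, SLC2A3, VEGFA and HK3 are higher in all MOLM-13 samples, and the first DMSO point of MONO-MAC-6 lies low in several panels.

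Phosphofructokinase commits fructose 6-phosphate to glycolysis, and its subunits showed the widest gap of the set. PFKM (chromosome 12, 48105139 to 48146404), the muscle-type subunit, stood at 2.26, 1.93 and 1.70 TPM in MOLM-13 with DMSO. In MONO-MAC-6 it stood at 39.6, 66.6 and 79.8 TPM. The 2 groups were far apart, 31.5-fold in the mean, with a difference of 4.35 ± 0.27 (SE, adjusted p = 5.1e-05). The transcript with the highest share in MONO-MAC-6 with DMSO, PFKM-206, is annotated as a retained intron and held 26.3% ± 2.8 of the gene's TPM there, against 3.88% ± 0.41 in MOLM-13 (SD, n = 3), so part of the gap lies in RNA not annotated as coding. PFKP (chromosome 10, 3066333 to 3137712), the platelet-type subunit, went the other way, at 75.6, 65.0 and 59.6 TPM in MOLM-13 and 22.9, 37.6 and 40.8 for MONO-MAC-6. Its groups did not overlap, and the difference was -1.0 ± 0.23 (SE, adjusted p = 0.0128). PFKL, the liver-type subunit, was 1.70-fold higher in MONO-MAC-6, at 177 ± 7.74 TPM against 104 ± 4.23 (SD, n = 3; adjusted p = 0.000325). PFKL led in both lines, with 60.3% ± 2.5 of the phosphofructokinase TPM in MOLM-13 and 65.4% ± 8.1 for MONO-MAC-6. The next in order was PFKP in MOLM-13 (38.6% ± 2.4) and PFKM in MONO-MAC-6 (22.4% ± 5.6).

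With A9, PFKM was 1.92, 2.01 and 1.5 TPM in MOLM-13 and 66.6, 66.6 and 60.8 for MONO-MAC-6. PFKP was 62.7, 70.5 and 46.3 TPM in MOLM-13 and 37.8, 37.5 and 38.2 for MONO-MAC-6. For both genes the A9 samples overlapped with DMSO in both lines. PFKL lay below all DMSO samples with A9 in MOLM-13 (difference -0.13, adjusted p = 0.739) and above all of them in MONO-MAC-6 (0.14, adjusted p = 0.302).

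PFKFB3 and PFKFB4 make and remove fructose 2,6-bisphosphate, the strongest activator of phosphofructokinase. PFKFB3 (chromosome 10, 6144934 to 6254644) stood at 20.9, 16.5 and 15 TPM in MOLM-13 with DMSO and at 17.9, 19.0 and 11.9 with A9, which overlapped. In MONO-MAC-6 it stood at 6.88, 13 and 15.2 TPM with DMSO and at 17.4, 19.9 and 17.5 with A9. There every A9 sample lay above every DMSO sample, and the difference of 0.66 ± 0.27 (SE) was the highest of the set in that line, with an adjusted p of 0.241. Without DMSO sample 1 it was 0.35 (adjusted p = 0.0225), smaller but past the threshold.

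The transcripts of PFKFB3 differed as well. PFKFB3-205, which starts at the far 5′ end of the gene, held 79.0% ± 3.6 of its TPM in MOLM-13 with DMSO (SD, n = 3), and PFKFB3-203, which starts farther downstream at position 6202931, held 3.93% ± 2.1. In MONO-MAC-6 with DMSO, PFKFB3-205 held 60.6% ± 18 and PFKFB3-203 21.3% ± 15, and with A9 they held 38.9% ± 8.3 and 38.3% ± 5.9. The TPM of PFKFB3-203 were 0.318, 3.25 and 5.20 in the DMSO samples and 5.6, 8.72 and 6.82 in the A9 samples of that line, with no overlap and no test. The lowest of these was DMSO sample 1, which stood apart as described above. The shares themselves overlapped, at 4.63% to 34.3% with DMSO and 32.1% to 43.9% with A9 for PFKFB3-203, and at 44.6% to 79.5% and 29.5% to 45.1% for PFKFB3-205. PFKFB4 (chromosome 3, 48517684 to 48562015) stood at 1.17, 0.934 and 0.855 TPM in MOLM-13 with DMSO and at 4.67, 6.79 and 8.40 in MONO-MAC-6, 6.70-fold higher in the mean. The groups did not overlap, with a difference of 1.91 ± 0.21 (SE, adjusted p = 0.000546). After A9 it was 1.05, 1.22 and 0.542 TPM in MOLM-13, where it was not tested, and 5.85, 7.09 and 6.33 in MONO-MAC-6. The share of PFKFB3 in the summed TPM of both genes was 59.6% to 65.7% in MONO-MAC-6 DMSO samples and 73.4% to 74.9% in A9 samples, and it was 94.6% to 94.7% in MOLM-13 with DMSO and 94.0% to 95.6% with A9.

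**Figure D5:**
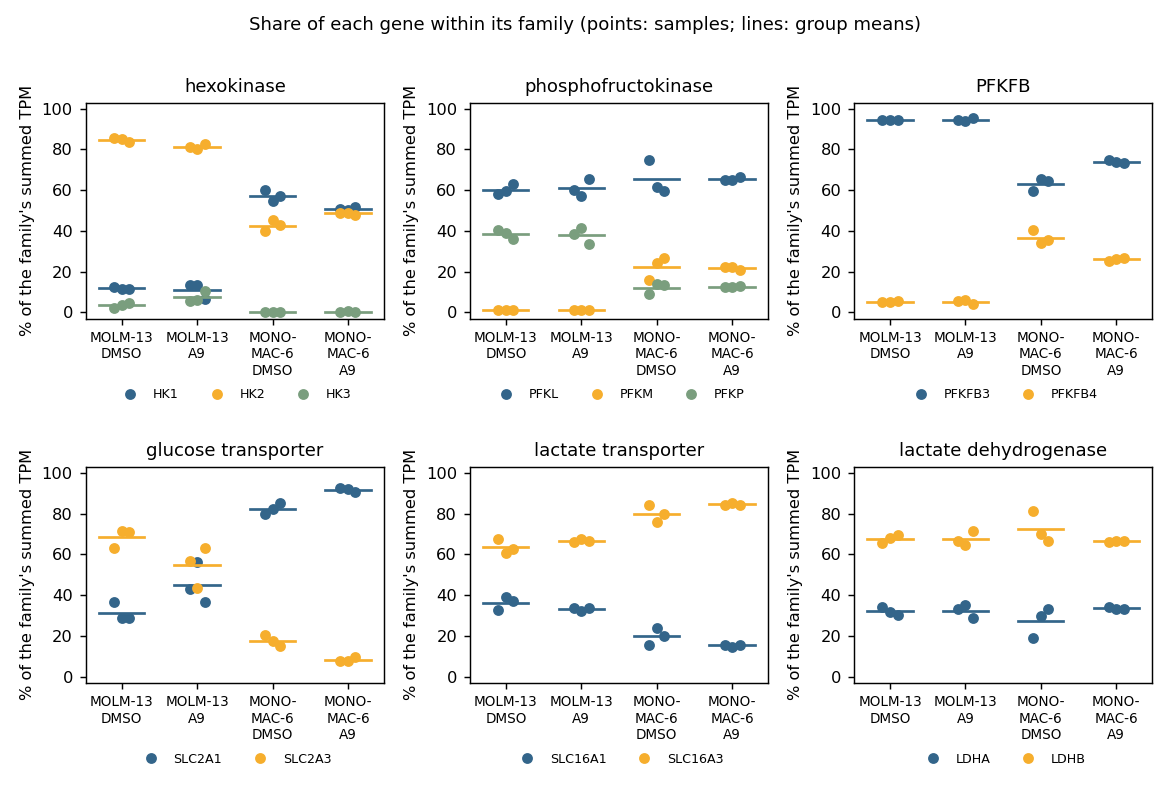
Share of each gene in the TPM summed over the genes of its family that belong to the set, in percent, for 6 families. Genes of these families outside the set are not counted. Points are the 3 samples of a group and lines are group means. HK2 leads the hexokinases in MOLM-13 and HK1 in MONO-MAC-6 with DMSO, PFKM and PFKP change places below PFKL, and SLC2A1 leads over SLC2A3 in MONO-MAC-6, while the lactate dehydrogenases keep similar shares.

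Aldolase splits fructose 1,6-bisphosphate. ALDOA, the main form in most cells, held 95.6% or more of the aldolase TPM in every sample, with 1100 ± 36 TPM in MOLM-13 and 944 ± 68.4 for MONO-MAC-6 with DMSO (SD, n = 3; adjusted p = 0.0739). ALDOC (chromosome 17, 28573115 to 28577264), best known from brain, stood at 5.52, 4.74 and 4.76 TPM in MOLM-13 with DMSO and at 38.3, 37.5 and 42.7 in MONO-MAC-6. The gap was 7.89-fold in the mean, with a difference of 2.75 ± 0.12 (SE, adjusted p = 1.34e-05). With A9, ALDOC was 6.94, 7.22 and 5.34 TPM in MOLM-13, where 2 of 3 samples lay above all DMSO samples (difference 0.31 ± 0.14, adjusted p = 0.689). In MONO-MAC-6 it was 28.9, 30.4 and 32.2 TPM, below all DMSO samples (difference -0.36 ± 0.098, adjusted p = 0.116). Without DMSO sample 1 that difference was -0.38 (adjusted p = 0.00781), about as large as with it.

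Among the middle steps, GAPDH, PGK1, TPI1 and PGAM1 were lower in MONO-MAC-6. GAPDH (chromosome 12, 6533927 to 6538374), which reduces NAD while it oxidises glyceraldehyde 3-phosphate, stood at 3741, 3633 and 3677 TPM in MOLM-13 and 2509, 2568 and 2725 for MONO-MAC-6 with DMSO. The groups did not overlap (difference -0.50 ± 0.078, adjusted p = 0.00223). The A9 samples stood at 3407, 3373 and 2992 TPM in MOLM-13 and 2208, 2221 and 2242 for MONO-MAC-6. In each line every A9 sample lay below every DMSO sample. The difference was -0.18 in MOLM-13 (adjusted p = 0.559), -0.23 in MONO-MAC-6 (adjusted p = 0.169) and, without DMSO sample 1, -0.25 (adjusted p = 0.00244). GAPDH, often used as a constant reference, was thus 1.42-fold lower in the mean in MONO-MAC-6 with DMSO.

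PGK1 (chromosome X, 77910739 to 78129296), which makes the first ATP of the pathway, stood at 397, 383 and 362 TPM in MOLM-13 with DMSO and at 151, 226 and 234 in MONO-MAC-6, with a difference of -0.92 ± 0.18 (SE, adjusted p = 0.00608) and no overlap. In A9 samples it was 371, 363 and 313 TPM in MOLM-13 and 215, 211 and 211 for MONO-MAC-6, which overlapped with DMSO. TPI1, which interconverts the triose phosphates, was 517 ± 50.7 TPM in MONO-MAC-6 against 741 ± 38.2 in MOLM-13 (SD, n = 3; adjusted p = 0.00528). PGAM1, the phosphoglycerate mutase, was 355 ± 18.3 against 602 ± 9.87 TPM (adjusted p = 0.000308). Of the enolases, ENO1 held 99.8% or more of TPM in all samples and was 1.25-fold higher in MONO-MAC-6 (2185 ± 154 against 1744 ± 56.3 TPM, adjusted p = 0.0217). ENO2, the neuronal form, was 4.13-fold higher there but low, at 3.27 ± 0.82 against 0.792 ± 0.12 TPM (adjusted p = 0.0016). Several of these genes have processed pseudogenes in the genome, and how the authors' counting split reads among such copies is not in the files.

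Pyruvate kinase makes pyruvate and ATP. PKM (chromosome 15, 72199029 to 72231822) stood at 581, 553 and 502 TPM in MOLM-13 with DMSO and at 947, 971 and 1107 in MONO-MAC-6, 1.85-fold higher in the mean. The groups did not overlap (difference 0.89 ± 0.10, adjusted p = 0.00058). With A9 it was 534, 604 and 467 TPM in MOLM-13 and 1111, 1098 and 1136 for MONO-MAC-6, with overlap in both lines.

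PKM carries a pair of exons of equal length that exclude each other, exon 9 (form M1, of muscle and brain) and exon 10 (form M2, of dividing cells). They are shown because they set which enzyme the transcripts encode. Each runs 167 bases on the minus strand of chromosome 15, exon 9 at 72203022 to 72203188 and exon 10 at 72202454 to 72202620 in GRCh38. Capitals mark the 62 positions at which they differ, counted along the exon.
PKM exon 9: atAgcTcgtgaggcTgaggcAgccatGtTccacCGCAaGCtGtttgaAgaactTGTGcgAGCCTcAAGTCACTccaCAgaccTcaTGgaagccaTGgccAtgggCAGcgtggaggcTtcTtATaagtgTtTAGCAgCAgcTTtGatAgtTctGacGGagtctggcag
PKM exon 10: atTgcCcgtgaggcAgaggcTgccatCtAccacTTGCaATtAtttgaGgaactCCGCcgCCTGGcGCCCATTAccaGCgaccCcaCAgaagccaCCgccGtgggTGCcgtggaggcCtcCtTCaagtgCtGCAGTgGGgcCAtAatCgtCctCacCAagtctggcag
Transcripts with exon 10 held 96.5% to 97.2% of the TPM of both forms in MOLM-13 samples with DMSO and 97% to 97.4% with A9. In MONO-MAC-6 they held 95.9% to 96.2% with DMSO and 95.5% to 95.7% with A9. The M1 form thus ranged from 2.64% to 3.49% in MOLM-13 and from 3.79% to 4.55% in MONO-MAC-6, and all samples of MONO-MAC-6 lay above all samples of MOLM-13. The M2 form led in every sample, in either line and treatment.

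Neither lactate dehydrogenase gene was called between the lines. LDHA (chromosome 11, 18394388 to 18408425), whose subunit favours the step from pyruvate to lactate, stood at 372, 358 and 336 TPM in MOLM-13 with DMSO and at 203, 302 and 360 in MONO-MAC-6. These overlapped (difference -0.34 ± 0.21, 95% interval -0.85 to 0.17, adjusted p = 0.229). After A9 it was 344, 350 and 292 TPM in MOLM-13 and 313, 295 and 304 for MONO-MAC-6. LDHB (chromosome 12, 21635342 to 21757857), whose subunit favours the reverse step, stood at 715, 760 and 768 TPM in MOLM-13 with DMSO and at 876, 707 and 720 in MONO-MAC-6. The A9 samples stood at 691, 639 and 725 TPM in MOLM-13, overlapping with DMSO. In MONO-MAC-6 with A9 it was 605, 591 and 607, below all DMSO samples (difference -0.35 ± 0.10, adjusted p = 0.138). Here DMSO sample 1 was the highest of the 6, and without it the difference was -0.25 (adjusted p = 0.00222). LDHB held the larger share in every sample, from 64.6% to 71.3% in MOLM-13 and from 65.9% to 81.2% in MONO-MAC-6.

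By TPM summed over all transcripts, with DMSO SLC2A3 led over SLC2A1 in MOLM-13 and SLC2A1 over SLC2A3 in MONO-MAC-6. SLC2A3 (chromosome 12, 7919230 to 7936275), the high-affinity carrier GLUT3, stood at 17.5, 16.8 and 14.8 TPM in MOLM-13 with DMSO and at 1.85, 2.77 and 3.01 in MONO-MAC-6. MOLM-13 was 6.43-fold higher in the mean, with no overlap (difference -2.31 ± 0.17, adjusted p = 0.000105). SLC2A1 (chromosome 1, 42925375 to 42959176), the widespread carrier GLUT1, stood at 10.2, 6.75 and 6.01 TPM in MOLM-13 with DMSO and 7.30, 13.1 and 17.1 in MONO-MAC-6, which overlapped (difference 0.60 ± 0.33, adjusted p = 0.185). SLC2A1 thus made up 31.5% ± 4.7 of the TPM of both in MOLM-13 and 82.5% ± 2.7 for MONO-MAC-6 (SD, n = 3). Most TPM of SLC2A1 sat on SLC2A1-208 and SLC2A1-202, transcripts annotated as targets of nonsense-mediated decay and as a retained intron, which held 65.3% ± 21 and 22.3% ± 22 in MOLM-13 with DMSO (SD, n = 3) against 57.7% ± 16 and 27% ± 19 in MONO-MAC-6. Its level is therefore less certain as a level of coding RNA, and so is its lead over SLC2A3 in MONO-MAC-6.

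SLC2A3 had the lowest A9 difference of the set in both lines. In A9 samples it was 11.5, 8.41 and 11.4 TPM in MOLM-13, below all DMSO samples, with a difference of -0.61 ± 0.15 (SE, adjusted p = 0.247). In MONO-MAC-6 it was 1.46, 1.34 and 1.75 TPM, again below all DMSO samples, with a difference of -0.48 ± 0.16 (adjusted p = 0.184). There the call passed with median-ratio scaling (adjusted p = 0.0408), with the length trend removed (0.0164) and without DMSO sample 1 (0.00673).

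SLC2A14, a near-identical neighbour of SLC2A3 on chromosome 12, bears on this reading, because reads can be split between the pair. It stood at 1.43, 1.56 and 1.62 TPM in MONO-MAC-6 with DMSO and at 2.66, 2.67 and 2.31 with A9 (difference 0.48, adjusted p = 0.0806). The sum of both was 4.08 ± 0.71 TPM with DMSO and 4.06 ± 0.056 with A9 (SD, n = 3), so in MONO-MAC-6 the summed level differed by less than the spread. In MOLM-13 the sum was 17.1 ± 1.7 TPM with DMSO and 11.2 ± 1.5 with A9, still with no overlap. Between the lines it remained lower in MONO-MAC-6. The sums were compared after the values were seen, and without a test. SLC2A1 with A9 was 8.64, 10.8 and 6.57 TPM in MOLM-13 (difference 0.17, adjusted p = 0.885) and 17.9, 16.0 and 16.6 in MONO-MAC-6 (0.47, adjusted p = 0.371), overlapping with DMSO in both.

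The lactate carriers were both higher in MONO-MAC-6. SLC16A3, the exporter MCT4 of glycolytic cells (chromosome 17, 82228397 to 82261129), stood at 48.1, 42.3 and 43.8 TPM in MOLM-13 and 157, 154 and 184 for MONO-MAC-6 with DMSO, 3.69-fold higher in the mean. The groups were well apart (difference 1.86 ± 0.10, adjusted p = 3.02e-05). With A9 it was 44.6, 45.1 and 41.5 TPM in MOLM-13, within the DMSO spread but for the last, and 211, 220 and 208 in MONO-MAC-6, above all DMSO samples. That difference was 0.37 ± 0.091 (SE, adjusted p = 0.093), and without DMSO sample 1 it was 0.34 (adjusted p = 0.013). SLC16A1, the carrier MCT1, was 41.3 ± 10.8 TPM in MONO-MAC-6 and 25.4 ± 1.99 in MOLM-13 with DMSO (SD, n = 3; adjusted p = 0.0439). With A9 it lay below all DMSO samples in MOLM-13 (difference -0.21, adjusted p = 0.655). In MONO-MAC-6 it overlapped in the full set (difference -0.058, adjusted p = 0.859) and was lower without DMSO sample 1 (-0.29, adjusted p = 0.0073).

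Of 4 genes of pyruvate entry, 3 were called lower in MONO-MAC-6 and 1 higher, beside 18.4% and 30.4% of all genes (29.2% and 26.1% with median-ratio scaling). PDK1 (chromosome 2, 172555373 to 172608669), a kinase that shuts the pyruvate dehydrogenase complex, stood at 8.62, 6.90 and 5.59 TPM in MOLM-13 with DMSO and at 2.57, 4.20 and 4.48 in MONO-MAC-6 (difference -0.77 ± 0.23, adjusted p = 0.0342). After A9 it was 5.19, 5.76 and 4.31 TPM in MOLM-13, where 1 sample overlapped with DMSO (difference -0.39 ± 0.18, adjusted p = 0.69). In MONO-MAC-6 it was 3.90, 4.58 and 3.37 TPM with A9, within the DMSO range but for 1 sample. PDHA1, a catalytic subunit of the complex, was 88.7 ± 3.99 TPM in MONO-MAC-6 and 131 ± 3.99 in MOLM-13 (SD, n = 3; adjusted p = 0.00127). MPC1, a subunit of the mitochondrial pyruvate carrier, was 75.2 ± 5.37 against 105 ± 1.42 TPM (adjusted p = 0.00383). Its partner MPC2 went the other way, at 43.6 ± 2.81 against 35.4 ± 1.09 TPM (adjusted p = 0.0395). With A9, MPC1 in MONO-MAC-6 was 91.6 ± 3.00 TPM, above all DMSO samples (difference 0.28 ± 0.084, adjusted p = 0.142). It was 0.34 higher without DMSO sample 1 (adjusted p = 0.00205), and with other samples left out the adjusted p went up to 0.48. Under the other alternatives the difference went as low as 0.092 and the adjusted p as high as 0.747.

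HIF1A itself was not called between the lines or after A9. It stood (chromosome 14, 61695513 to 61748259) at 17.2, 14.6 and 11.2 TPM in MOLM-13 and 11.4, 24.4 and 24.4 for MONO-MAC-6 with DMSO (difference 0.40 ± 0.32, adjusted p = 0.346). The A9 samples stood at 13.6, 15.4 and 13.4 TPM in MOLM-13 and 25.7, 23.6 and 22.8 for MONO-MAC-6, overlapping with DMSO in both. Its low value in MONO-MAC-6 was DMSO sample 1, and without that sample HIF1A was 0.75 higher in MONO-MAC-6 than in MOLM-13 (adjusted p = 0.0137).

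Of the 8 genes made up of HIF1A and the HIF-linked genes, 2 were higher, 2 lower and 4 not called between the lines, a share near the 48.8% of all genes called. VEGFA (chromosome 6, 43770184 to 43786487), the vessel growth factor and a classic HIF target, stood at 48.7, 39.3 and 35.2 TPM in MOLM-13 with DMSO and at 7.87, 18.2 and 17.6 in MONO-MAC-6. The gap was 2.82-fold in the mean with no overlap (difference -1.51 ± 0.32, adjusted p = 0.00971). In A9 samples it was 43.1, 46.0 and 29.9 TPM in MOLM-13 and 15.6, 15.9 and 15.4 for MONO-MAC-6, overlapping with DMSO in each line. ANKRD37, another HIF target, was also lower in MONO-MAC-6 (4.81 ± 0.45 against 7.29 ± 1.0 TPM, adjusted p = 0.03). BNIP3, a mitophagy receptor, was 1.75-fold higher in MONO-MAC-6 (31.5 ± 1.13 against 18 ± 0.66 TPM, adjusted p = 0.0009), and P4HA1, a collagen prolyl hydroxylase, was 1.54-fold higher (28.3 ± 4.22 against 18.4 ± 2.12 TPM, adjusted p = 0.0201). EGLN1, BNIP3L and the histone demethylase KDM3A were not called between lines, with adjusted p-values of 0.158, 0.917 and 0.15.

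After A9 the HIF-linked genes gave no call in either line. EGLN1 (chromosome 1, 231363751 to 231425044), the oxygen-sensing hydroxylase, stood at 48.2, 40.5 and 30.9 TPM in MOLM-13 with DMSO and 34.0, 40.5 and 20.9 with A9, which overlapped (difference -0.35 ± 0.27, adjusted p = 0.867). In MONO-MAC-6 it was 15.8, 30.7 and 33.6 TPM with DMSO and 38.0, 36.4 and 34.9 with A9 (difference 0.50 ± 0.27, adjusted p = 0.338), with every A9 sample above DMSO. Without DMSO sample 1 that difference was 0.18 (adjusted p = 0.0791). BNIP3L, a mitophagy receptor related to BNIP3, stood at 6.16, 9.31 and 11.1 TPM in MONO-MAC-6 with DMSO and at 11.6, 14.3 and 13.8 with A9. Its A9 samples lay above all DMSO samples (difference 0.56 ± 0.22, adjusted p = 0.222, and 0.34 with an adjusted p of 0.0516 without DMSO sample 1). In MOLM-13 it was 10.8, 8.59 and 7.5 TPM with DMSO and 9.80, 9.94 and 7.28 with A9, which overlapped. BNIP3 in MOLM-13 lay above DMSO in all A9 samples (19.6 ± 0.071 against 18 ± 0.66 TPM, adjusted p = 0.829). P4HA1, ANKRD37, VEGFA and HIF1A overlapped with DMSO in both lines, and KDM3A did so in MOLM-13 only. In MONO-MAC-6 the difference of KDM3A was 0.46 (adjusted p = 0.382), and without DMSO sample 1 it was 0.12 (adjusted p = 0.203).

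Transcripts of 8 other genes of the set also shared their TPM, with at least 2 above 20% in the mean of a line, and none of these shares was tested. LDHA-203, a coding transcript of LDHA, held 11.7% to 49.8% in MONO-MAC-6 samples with DMSO and 13.6% to 13.9% with A9, and in MOLM-13 it held 12.8% to 31.2% and 17.5% to 44.6%. KDM3A-201 held 16.7% to 57.1% of the TPM of KDM3A in MONO-MAC-6 with DMSO and 41.8% to 63% with A9, and KDM3A-202 held 18.1% to 63.5% and 6.16% to 29.6%. P4HA1-204 held 31.9% ± 18 with DMSO and 42.4% ± 2.6 with A9 in that line (SD, n = 3). These shares spread widely within the DMSO group and overlapped with A9. The group means of ALDOA-221 were 67.8% to 73.6% and those of PDHA1-205 38.2% to 40.8%, and the A9 and DMSO samples overlapped in both lines. In 4 genes a share lay apart with A9 in MONO-MAC-6, and how often shares lay apart over all genes was not counted. By TPM, the A9 and DMSO samples of 37.9% of all genes tested did not overlap in that line. HIF1A-202 held 62.5% to 65.3% with DMSO and 65.8% to 71.9% with A9, and HIF1A-203 held 23.9% to 27.4% and 19.3% to 22.9%. GPI-208 held 31.5% to 35.8% with DMSO and 28.7% to 30.5% with A9, and P4HA1-203 held 40.5% to 54.7% and 28.9% to 38.9%. ANKRD37-201, which is coding, held 32% ± 4.9 in MONO-MAC-6 with A9 against 44.2% ± 1.1 with DMSO, while ANKRD37-203, annotated as a processed transcript, held 46.8% ± 1.4 against 39.1% ± 4.0, and neither share overlapped between A9 and DMSO samples.

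Other genes of the pathway, taken from lists of related function, gave 7 calls with A9 in MONO-MAC-6 and 1 in MOLM-13, where 3.36% and 0.121% of all genes were called and the medians over all genes were 0.16 and -0.046. Most lists held 0 or 1 call. In MONO-MAC-6, 4 of the 16 tested genes of glucose branches and brakes were called, 3 higher and 1 lower, with a list median of 0.28. PGD and TKT, enzymes of the pentose phosphate pathway, rose. PGD went from 113 ± 21.6 to 219 ± 15.7 TPM (0.96, adjusted p = 0.028) and TKT from 491 ± 66.8 to 762 ± 28.2 TPM (0.64, adjusted p = 0.0372). FBP1, the gluconeogenic fructose bisphosphatase, rose from 8.16, 8.20 and 8.84 to 16.0, 17.2 and 16.3 TPM (0.90 ± 0.11, adjusted p = 0.011). PCK2, mitochondrial phosphoenolpyruvate carboxykinase, fell from 21.9 ± 0.66 to 14.7 ± 0.175 TPM (-0.54, adjusted p = 0.0371). For all 4 the A9 and DMSO samples did not overlap. These calls were lost when some samples were left out. FBP1 (adjusted p up to 0.103), PGD (up to 0.166) and TKT (up to 0.209) were lost without any one A9 sample or without DMSO sample 2, and PCK2 (up to 0.241) in every such fit but that without DMSO sample 1. TKT also missed the threshold with median-ratio scaling (0.0962).

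In MOLM-13, 0 of 14 genes of that list were called, with a median of -0.050. Of the pyruvate dehydrogenase complex and its regulators, 1 of 11 was called in MONO-MAC-6 and 0 of 11 in MOLM-13. The gene was PDK4, a starvation-linked kinase of the complex, which went from 0.101, 0.132 and 0.224 to 1.08, 1.70 and 1.40 TPM (difference 1.05 ± 0.14, adjusted p = 0.0133) and was listed at 0 in all MOLM-13 samples. It was lost without A9 sample 2 or 3 or DMSO sample 2 (adjusted p up to 0.0971). Of the HIF machinery, 1 of 13 was called in MONO-MAC-6 and 0 of 12 in MOLM-13. EPAS1, which encodes HIF2A, rose from 0.259, 0.855 and 0.588 to 1.85, 2.33 and 3.13 TPM (1.13 ± 0.20, adjusted p = 0.0396), below the 10.0 ± 2.34 TPM of MOLM-13 with DMSO. Of 30 other HIF-linked genes, 22 were tested in MONO-MAC-6 and 1 was called, and 21 were tested in MOLM-13 and 1 was called. TMEM45A rose in MONO-MAC-6 from 9.32 ± 1.5 to 18 ± 0.59 TPM (0.89, adjusted p = 0.0278). EPAS1 (up to 0.185) and TMEM45A (up to 0.175) stayed called in the fit without DMSO sample 1 and in no other that left out a sample. DDIT4, a stress-induced brake on mTORC1 that HIF also raises, fell in MOLM-13 from 193, 200 and 204 to 124, 127 and 121 TPM (-0.68 ± 0.054, adjusted p = 0.0192), and of the fits that left out a sample it stayed called only in that without A9 sample 3 (up to 0.204 without DMSO sample 2). It also missed the threshold with median-ratio scaling (0.122) and with no filter on low values (0.0802). Of the other glycolysis enzymes, 0 of 6 tested were called in MONO-MAC-6 and 0 of 5 in MOLM-13. Of the other glucose and lactate carriers, 0 of 10 and 0 of 7 were called.

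Promoter sequences were matched for 32 of the 36 genes in RefSeq (GRCh38.p14), with SLC2A3, SLC16A1, VEGFA and BNIP3L unmatched. The core of the HIF response element is ACGTG or GCGTG, and ACGTG also lies within the E-box CACGTG that MYC and other factors read. In the 250 bases before the start, on either strand, ACGTG or GCGTG was found in 23 of 32 genes (71.9%), against 43.2% of 35116 such windows of 27305 genes. ACGTG alone was found in 14 of 32 (43.8%) against 18.5%. A match describes letters and no binding, and the base composition of the windows was not matched. The units also differ, since the set counts a single window for each of 32 genes, out of 62 listed for them. The share beside it counts every window of every gene. For some genes the main transcript starts far from the window, as in PGK1 (193509 bases) and PFKM (3304 bases). The windows below are those of SLC16A3 and PKM, higher in MONO-MAC-6, and of PDHA1 and PDK1, lower in it. They had the highest and lowest differences between the lines among 9 called genes whose main transcript starts within 50 bases of the window. They lie at chr17:82228792-82229041 on the plus strand, chr15:72231191-72231440 on the minus strand, chrX:19343677-19343926 on the plus strand and chr2:172555840-172556089 on the plus strand, and capitals mark ACGTG and GCGTG or their reverse complements.
SLC16A3 promoter: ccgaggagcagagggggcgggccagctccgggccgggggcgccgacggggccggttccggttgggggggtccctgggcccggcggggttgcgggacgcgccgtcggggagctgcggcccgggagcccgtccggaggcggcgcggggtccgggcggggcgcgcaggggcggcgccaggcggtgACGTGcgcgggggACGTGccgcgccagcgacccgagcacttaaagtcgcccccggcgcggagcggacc
PKM promoter: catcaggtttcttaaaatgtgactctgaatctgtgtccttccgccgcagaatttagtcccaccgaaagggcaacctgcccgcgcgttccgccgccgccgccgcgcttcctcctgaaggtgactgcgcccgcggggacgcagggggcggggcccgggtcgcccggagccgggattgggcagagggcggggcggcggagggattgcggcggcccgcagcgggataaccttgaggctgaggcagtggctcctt
PDHA1 promoter: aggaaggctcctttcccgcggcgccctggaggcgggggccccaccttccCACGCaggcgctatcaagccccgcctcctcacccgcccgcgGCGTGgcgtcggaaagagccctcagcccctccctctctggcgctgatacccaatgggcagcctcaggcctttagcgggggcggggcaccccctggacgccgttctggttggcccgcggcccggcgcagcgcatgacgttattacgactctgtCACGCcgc
PDK1 promoter: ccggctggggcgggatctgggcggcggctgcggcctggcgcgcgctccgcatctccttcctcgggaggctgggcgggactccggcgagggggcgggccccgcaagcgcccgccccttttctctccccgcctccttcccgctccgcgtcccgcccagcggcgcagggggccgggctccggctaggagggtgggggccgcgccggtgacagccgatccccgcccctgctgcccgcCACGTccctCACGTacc
SLC16A3 and PDK1 each hold ACGTG at 2 places, PDHA1 holds GCGTG at 3, and PKM holds neither. The motif was thus found on both sides of the difference between lines, in genes that were higher and in genes that were lower in MONO-MAC-6. ALDOC held 5 matches and BNIP3 6, both higher in MONO-MAC-6, and LDHA, not called, also held 5.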

How the data were processed

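Bulk poly(A) RNA was measured in 36 libraries, 9 in each of 4 groups. Per the submitters' processing notes, the authors used kallisto and the GRCh38 build, with versions not given in the sources used here, and deposited 1 table of TPM values (transcript abundance relative to length and library total) for each line. The strand setting is not given, and TPM hold no depth per sample. Of 207175 transcripts, 162561 (78.5%) matched GENCODE 29 (GRCh38) and were summed to 35490 genes by the gene ID of that annotation. Matched transcripts held 89.9% to 91.4% of TPM, and 26 of 457 annotated transcripts of the 36 genes, in 12 of them, were not in the tables.

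The 9 libraries of a group carry a first and a second number, each from 1 to 3. They were averaged by the first into 3 samples, since the labels state 3 per condition. The median SD within a first number (log2 scale) was 0.0889 for MOLM-13 libraries (0.203 within a second number) and 0.0972 for those of MONO-MAC-6 (0.236). Genes that reached a mean of 1 TPM in any group compared were tested on log2(TPM + 1) with limma 3.58.1 (R 4.3.3, moderated variances with trend and robust options), two-sided, with Benjamini-Hochberg adjustment over all genes. Each fit held only the groups compared. For 3 against 3 samples, the lowest p of an exact permutation test is 0.1.

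On simulated data, with 200 genes changed by 1.5 on the log2 scale, limma recovered 87.0% in the MOLM-13 design, 75.5% in the MONO-MAC-6 design, 71.5% in that of the difference between effects and 70.0% in that between lines. The simulated noise was independent between genes and samples, without the shared shifts of single samples described above. The planted change was also larger than any A9 difference of the set (0.66 at most), so these rates do not give the power for the set. The members and gene lists were chosen with earlier results of these data known, and 1 listed gene is not reported here. Values were printed for the 3 highest and 3 lowest A9 differences in each line, the 4 highest and 4 lowest between lines, HIF1A, SLC2A1, LDHA, PKM and GAPDH, and up to 5 called genes a list, and other members by group. Transcripts were named for PKM and for genes with at least 2 transcripts above 20%. Alternatives were another pseudocount, other filters, the other averaging, a replicate block, median-ratio scaling, removal of the trend with transcript length in each sample, and leaving out each sample.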

Additional observations from a re-analysis of the deposited data

Results flagged for a closer look

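For the 4 genes of the related lists named below the A9 effect differed between the lines. This was limma's test of the difference itself, adjusted over all genes, with line and dose changing together. They are not all that were called, beside 2.99% of all genes. Of 16 tested glucose branches and brakes, 2 were higher and 1 lower. The calls were 1 of 6 other glycolysis enzymes and 1 of 10 other carriers. They were 1 of 12 for the pyruvate dehydrogenase complex, 1 of 13 for the HIF machinery and 1 of 23 for other HIF-linked genes. The difference is the effect in MONO-MAC-6 minus that in MOLM-13 on the log2(TPM + 1) scale. For PDK4 it was 1.048 (adjusted p = 0.00192), with the MOLM-13 samples at 0, and it was not called with the length trend removed (0.135). For FBP1 it was 0.8158 (adjusted p = 0.013), not called with a pseudocount of 0.1 (0.250), with median-ratio scaling (0.0786) or with the replicate block (0.0933). For DDIT4 it was 0.6167 (adjusted p = 0.0153), with a lower level after A9 in MOLM-13 and overlapping samples in MONO-MAC-6, and it was not called with median-ratio scaling (0.265) or in 3 of 12 fits that left out a sample (up to 0.0546). For PCK2 it was -0.5166 (adjusted p = 0.0255), and it was lost with the replicate block (0.132) and in 8 of 12 fits that left out a sample.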

How the results depend on the processing

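No value of the 36 genes called between the lines changed direction under any alternative. Averaging libraries by the second number called 20, 24 and 24 genes of the set after A9 in MOLM-13, after A9 in MONO-MAC-6 and for the difference between effects, and 5439, 8705 and 8507 genes in all, with 11059 between the lines. Over all genes, against 14 in MOLM-13, 4 were called with no filter, 87 with the replicate block, 46 with median-ratio scaling and 177 with the length trend removed. In MONO-MAC-6, against 433, the counts were 254 with no filter, 94 with the block and 1195 with the length trend removed. There the set gave 1 call with median-ratio scaling and 4 with the length trend removed. For the difference between effects, against 401, the counts were 207 with the block and 740 with the length trend removed. For that difference the set gave 1 call with either scaling or length trend removal. In both comparisons the count over all genes with median-ratio scaling is not given here, so the calls of the set under it have no background beside them. Between the lines, 4111 of 12928 genes were called with the block against 6308 without it, and in the set 17 of 35 with it against 25.

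Leaving out a sample gave 0 calls of the set in MOLM-13 (2 to 8 genes in all), 0 to 12 in MONO-MAC-6 (59 to 3205), 0 to 1 for the difference (197 to 549) and 19 to 29 between the lines (4645 to 8069). The replicate numbers were not taken as pairing samples. Deviations of same-numbered samples correlated at 0.361, -0.077 and 0.676 in MOLM-13 and at -0.0272, 0.0876 and -0.0907 in MONO-MAC-6, and 3 of 6 and 2 of 6 samples correlated best with their own number. With the replicate block, 0 genes of the set were called after A9 in either line or for the difference. Between the lines 17 of 35 were called with it (10 higher and 7 lower), against 25 without it, beside the counts over all genes given above. Depth cannot be read from TPM, so low values such as HK3 carry an unknown counting error.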
